A study of Mus musculus with 18 samples.

Results

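The genes described here are 43 collagen, matrix and stromal-cell genes, taken as a list of symbols. They cover the collagen chains, the enzymes and chaperone that process them, the proteoglycans and glycoproteins of the matrix, the receptors and signals of stromal cells, and genes of the contractile apparatus. Each gene was read on the brightest of its probes that was detected on at least 1 array. Of the 43 genes, 41 had an annotated probe, 38 were detected and tested among 12417 genes in all, and 3 (Lum, Postn and Thy1) were not detected on any of the 18 arrays. Col6a3 and Fbn1 had no annotated probe among those used and were not analysed here.

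The cells were bone marrow-derived macrophages (BMM) of C57BL/6 mice, grown from bone marrow for 8 days in L929-conditioned medium, a source of the macrophage growth factor M-CSF. There were 6 groups of 3 arrays: Nur77-KO BMM with LPS, WT BMM with LPS, Nur77-KO BMM with IL-4, WT BMM with IL-4, unstimulated Nur77-KO BMM and unstimulated WT BMM. LPS was given at 100 ng/ml and IL-4 at 50 ng/ml, both for 8 h, whereas the unstimulated cells were taken at 0 h, so that each response also holds any change over those 8 h of culture. Nur77-KO mice lack the nuclear receptor Nur77, encoded by Nr4a1, in all their cells, so the knockout was not limited to macrophages. Marrow came from 3 mice of each genotype per batch; which mouse stands behind which array was not known, and a p-value here covers the spread from array to array alone, which may be technical. The single probe for Nr4a1 was not detected on any array (log2 intensity 4.54 to 4.98 in Nur77-KO and 4.60 to 5.38 in WT) and could not check the genotype labels.

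Collagens are secreted as helical chains that are trimmed outside the cell, aligned into fibres or sheets and joined by cross-links, while proteoglycans and glycoproteins set the spacing of the fibres and tie them to cells. Fibroblasts, pericytes and smooth muscle cells are the main producers of these molecules in most tissues. Macrophages are best known for degrading and remodelling matrix, although they can express several of the genes themselves. An array reads the pooled RNA of a culture, and fewer cells of a type and less RNA per cell cannot be told apart in such data.

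Before any comparison of groups, 4 of the 12 stimulated arrays had to be set apart: Nur77-KO LPS replicate 1, WT LPS replicate 3, Nur77-KO IL-4 replicate 1 and WT IL-4 replicate 1. The mean log2 intensity of the 38 genes was 5.36 to 5.71 on these 4 arrays and 7.09 to 8.82 on the other 14. A gene counts as detected on an array when its detection p-value is under 0.05, and 8 to 15 of the 38 genes were detected on each of the 4 arrays, against 28 to 36 on the others. The 4 arrays were chosen after the data were seen, as the lowest array of each stimulated group in a list of mesenchymal genes that holds none of the 38. In that list, 19 of 28 genes were tested. Their mean was 5.82 to 6.08 on the 4 arrays and 6.33 to 7.36 on the others, with 4 to 9 and 8 to 14 genes detected. Some genes of the list went against the mean. Igfbp4 was highest of its group on the array set apart in WT with LPS and in both genotypes with IL-4 (10.89 against 9.83 and 9.42 in Nur77-KO). So were Lepr in both genotypes with IL-4, Twist1 in Nur77-KO with LPS and Pdpn in both genotypes with LPS, among others. A smooth muscle and pericyte list outside the 38 genes (8 of 12 tested) gave means of 5.59 to 5.96 on the 4 arrays, against 6.74 to 7.55, with 1 to 4 and 5 to 7 genes detected. Macrophage markers (9 of 12 tested) were detected on every array, and their mean ran the other way: in all 4 stimulated groups it was highest on the array that stands apart. It read 11.59 there against 11.29 and 11.32 in Nur77-KO with LPS, 11.68 against 11.56 on both partners in WT with LPS, 10.77 against 10.04 and 10.09 in Nur77-KO with IL-4, and 10.98 against 10.19 and 10.28 in WT with IL-4. Not every marker followed the mean. In WT with LPS, Aif1 rose most (12.93 against 11.76 and 11.72), and Csf1r, Itgam, Mertk and Lyz2 were also highest there. Adgre1, Fcgr1, Cd14 and Spi1 were lowest there. Mertk in Nur77-KO with LPS and Itgam in Nur77-KO with IL-4 were also lowest on the array that stands apart. The mean of the neutrophil genes (7 of 8 tested) was also highest on that array in all 4 groups, by 0.86 to 1.22 log2 units over the mean of the partners. Not every neutrophil gene followed it. Elane and Mpo in WT with LPS, Mpo in Nur77-KO with LPS and Camp in WT with IL-4 were lowest on that array. Elane in Nur77-KO with IL-4 lay between its partners there.

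**Figure D1:**
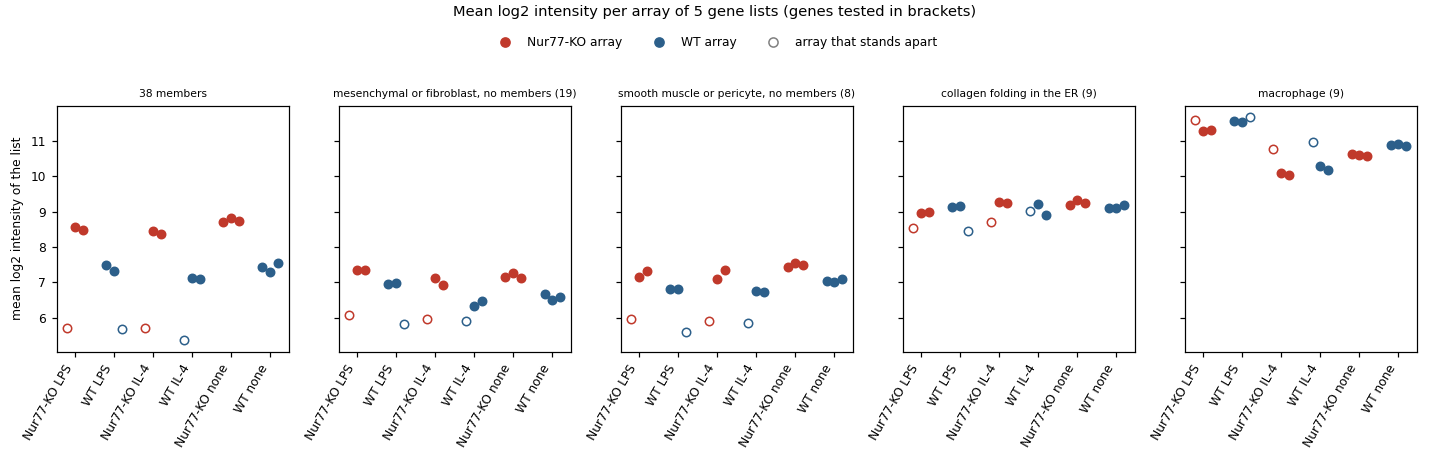
Mean log2 intensity (y axis) on each of the 18 arrays, by group (x axis), of the 38 collagen, matrix and stromal-cell genes, of 2 lists of mesenchymal and smooth muscle genes outside them, of genes for collagen folding in the endoplasmic reticulum and of macrophage markers; each point is an array and open points are the 4 arrays that stand apart. The open points lie at 5.36 to 5.71 in the first panel, below all other arrays, and at 10.77 to 11.68 in the macrophage panel, each the highest point of its own group.

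The 2 Nur77-KO arrays of the 4 also differed from the other Nur77-KO arrays in genes unrelated to matrix. Npy, encoding neuropeptide Y, read 5.72, 10.61 and 10.69 on the Nur77-KO LPS arrays, replicates 1 to 3, and 4.61, 9.88 and 9.94 on the Nur77-KO IL-4 arrays, whereas it lay between 10.26 and 10.33 on unstimulated Nur77-KO arrays and between 4.52 and 5.35 on all 9 WT arrays. The Y-linked gene Eif2s3y read 4.53, 9.26 and 9.08 with LPS and 4.59, 9.40 and 8.91 with IL-4 in Nur77-KO BMM, against 4.45 to 4.76 on all WT arrays. In both genes these 2 arrays were near the level of the WT arrays and far from that of the other Nur77-KO arrays. They go against the other arrays of their label in this respect, and are called here by the label as deposited. The part of these differences in the results below was not tested, and each result is given with all 18 arrays and without the 4.

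Within a stimulated group, the 38 genes moved together from array to array. Of the 38, 29 (76.3%) were lowest on the array that stands apart in all 4 stimulated groups, as were 8.88% of all genes tested. The median SD within a group was 1.88 in Nur77-KO with LPS, 1.05 in WT with LPS, 1.67 in Nur77-KO with IL-4 and 1.03 in WT with IL-4, whereas it was 0.12 in unstimulated Nur77-KO and 0.19 in unstimulated WT. The corresponding medians over all genes ran from 0.14 to 0.27. A single component held 93.2% of the variance of the 38 genes within groups (37.4% for all genes), and 24.9% once the 4 arrays were left out (28.4% for all genes). Among the 100 genes with the largest variance within groups, 23 belonged to the 38. Unstimulated replicates thus differed little in these genes, and the share held by the component fell below that of all genes when the 4 arrays were gone. The 4 arrays had been picked as the lowest of their groups in a list that is low on the same arrays as the 38 genes. That fall therefore follows in part from the choice and is no separate result.

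**Figure D2:**
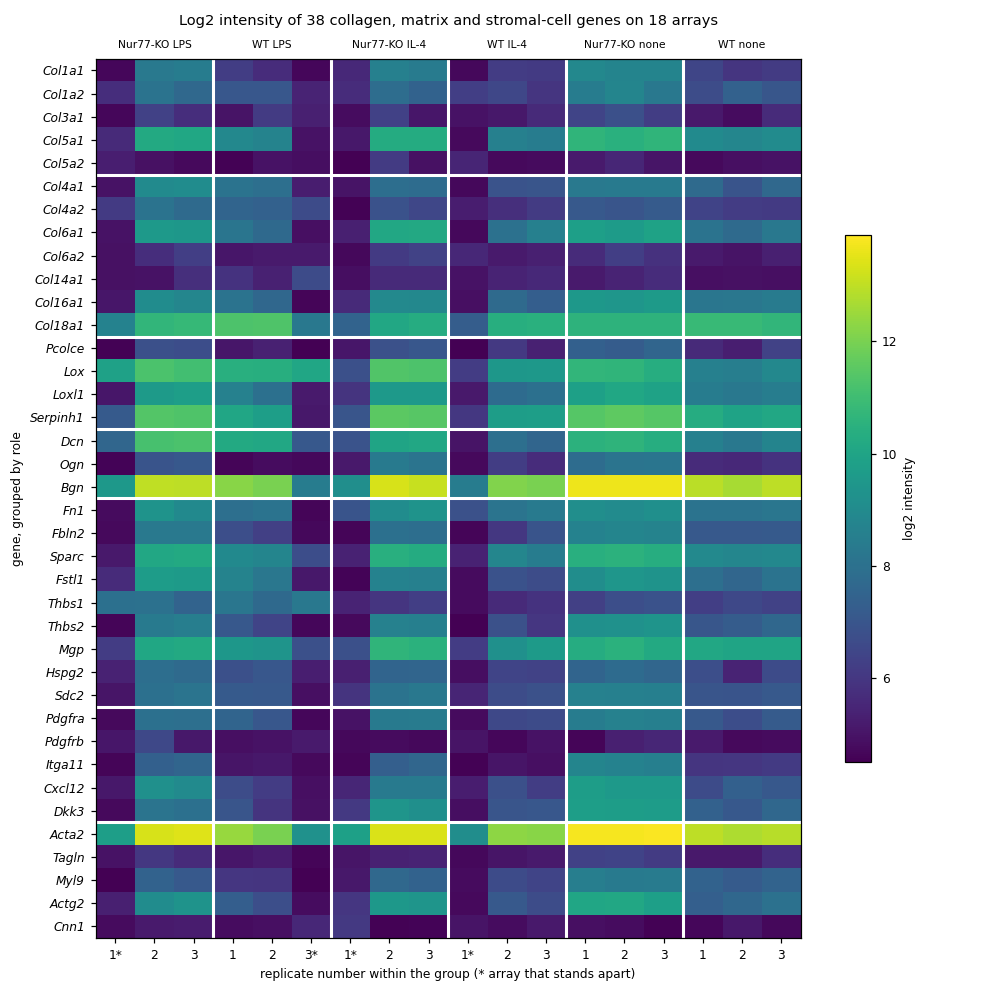
Log2 intensity (colour) of the 38 genes (rows, grouped by role) on the 18 arrays (columns, grouped by genotype and stimulus, replicate number below; an asterisk marks the 4 arrays that stand apart). The marked columns are dark for most rows, and the unstimulated Nur77-KO columns are the brightest, with a mean of 8.72 to 8.82.

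Among the fibrillar collagens, Col5a1, a chain of the minor fibrillar collagen V that starts fibre assembly, showed the pattern most plainly. Its log2 intensity was 5.61, 10.20 and 10.11 on the Nur77-KO LPS arrays and 8.89, 8.72 and 4.95 on the WT LPS arrays, replicates 1 to 3. With IL-4 it was 5.12, 10.29 and 10.29 in Nur77-KO and 4.75, 8.60 and 8.43 in WT, and without stimulus it was 10.65, 10.48 and 10.66 in Nur77-KO and 8.98, 8.81 and 9.04 in WT. The 4 arrays that stand apart were the only ones on which Col5a1 was not detected, and each differed from the mean of its group partners by -5.17 to -3.77 log2 units. Col1a1, a chain of type I collagen, the main collagen of scar and bone, read 4.66, 8.30 and 8.46 with LPS in Nur77-KO and 6.20, 5.70 and 4.67 in WT. With IL-4 it read 5.57, 8.58 and 8.39 in Nur77-KO and 4.71, 6.18 and 6.11 in WT, and in unstimulated cells 8.88, 8.75 and 8.74 in Nur77-KO and 6.48, 5.95 and 6.13 in WT. Col1a2, its partner chain, was detected on 3 of the 4 arrays and lay between 5.43 and 6.25 there and between 5.97 and 8.76 on the others. Col3a1 was detected on 9 arrays and read 6.44, 6.80 and 6.20 in unstimulated Nur77-KO, its highest group. Col5a2 was detected on 2 arrays (up to 6.14) and was otherwise close to background.

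In the group of network, beaded-filament and other collagens, Col4a2, a chain of the basement membrane collagen IV, kept a signal in the LPS arrays. It read 6.08, 8.09 and 7.74 in Nur77-KO with LPS and 7.54, 7.41 and 6.64 in WT with LPS. With IL-4 the values were 4.55, 6.88 and 6.51 in Nur77-KO and 5.27, 5.76 and 6.13 in WT, against 7.12, 6.99 and 7.18 in unstimulated Nur77-KO and 6.37, 6.18 and 6.10 in unstimulated WT. Its neighbour and partner chain Col4a1 was not detected on any of the 4 arrays (4.71 to 5.25) and lay between 6.90 and 9.06 on the others. Col6a1, of the beaded microfilaments, lay between 4.69 and 5.32 on the 4 arrays and between 7.72 and 10.19 on the others, and Col16a1 between 4.64 and 5.62 and between 7.30 and 9.62. Col18a1, whose product carries the endostatin fragment, was detected on all 18 arrays, at 7.27 to 8.67 on the 4 and 10.14 to 11.33 on the others. Col6a2 did not exceed 6.37 on any array.

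Col14a1, encoding a collagen that associates with the surface of fibrils, went the other way on 1 of the arrays. Its values were 4.90, 4.96 and 5.76 in Nur77-KO with LPS and 5.89, 5.38 and 6.65 in WT with LPS, and its highest value of all was that of WT LPS replicate 3. In cells with IL-4 it read 4.85, 5.62 and 5.62 in Nur77-KO and 4.97, 5.45 and 5.57 in WT, and without stimulus 5.17, 5.45 and 5.70 in Nur77-KO and 4.90, 4.92 and 4.90 in WT, where it was not detected on any WT array.

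Among the processing genes, Serpinh1, the collagen chaperone HSP47, had the largest median gap of the 38 genes over the 4 arrays, -4.36 log2 units against the mean of the group partners. Serpinh1 read 7.15, 11.40 and 11.30 in Nur77-KO and 10.06, 9.76 and 5.09 in WT with LPS. It read 6.97, 11.54 and 11.45 in Nur77-KO and 6.01, 9.74 and 9.78 in WT with IL-4, against 11.43, 11.55 and 11.40 in unstimulated Nur77-KO and 10.34, 9.94 and 10.12 in unstimulated WT. Lox, the lysyl oxidase that starts cross-linking, stood out because its gap differed between the stimuli. With LPS it read 9.90, 11.23 and 11.06 in Nur77-KO and 10.44, 10.38 and 10.06 in WT, so that the arrays that stand apart differed from the mean of their partners by -1.25 in Nur77-KO and -0.35 in WT. With IL-4 it read 6.81, 11.34 and 11.26 in Nur77-KO and 6.16, 9.49 and 9.52 in WT, with gaps of -4.49 in Nur77-KO and -3.35 in WT, and the unstimulated values were 10.68, 10.66 and 10.37 in Nur77-KO and 8.60, 8.52 and 8.91 in WT. Loxl1 lay between 5.06 and 5.92 on the 4 arrays and between 7.77 and 10.10 on the others, and Pcolce, an enhancer of procollagen cleavage, between 4.49 and 5.05 and between 5.08 and 7.58.

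Of the small leucine-rich proteoglycans, Bgn, encoding biglycan, was detected on all 18 arrays. Bgn read 9.53, 12.99 and 12.95 in Nur77-KO with LPS and 12.23, 12 and 8.44 in WT with LPS. The IL-4 values were 9.13, 13.34 and 13.11 in Nur77-KO and 8.46, 12.12 and 12.01 in WT, and the unstimulated values 13.67, 13.67 and 13.65 in Nur77-KO and 12.94, 12.68 and 12.95 in WT. The gaps of the 4 arrays were -4.10 to -3.44 log2 units. Dcn, encoding decorin, which coats collagen fibrils, read 7.62, 11.18 and 11.24 in Nur77-KO and 10.21, 10.14 and 7.07 in WT with LPS. It read 6.89, 9.99 and 10.14 in Nur77-KO and 4.99, 7.93 and 7.56 in WT with IL-4, against 10.54, 10.61 and 10.36 in unstimulated Nur77-KO and 8.58, 8.26 and 8.76 in unstimulated WT. Leaving the 4 arrays aside, all LPS arrays were above all IL-4 arrays of the same genotype. Ogn (osteoglycin) was at 4.61 to 5.13 on the 4 arrays and at 4.64 to 8.36 on the others, where WT cells with LPS had 4.64 and 4.81.

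Of the glycoproteins, Thbs1, encoding thrombospondin 1, a secreted protein that binds cells and activates latent TGF-beta, was an exception to the shared pattern with LPS. It read 7.97, 8.0 and 7.51 in Nur77-KO with LPS and 8.20, 7.73 and 8.26 in WT with LPS, and the arrays that stand apart were 0.22 and 0.30 above the mean of their partners. It read 5.45, 5.96 and 6.25 in Nur77-KO and 4.78, 5.60 and 5.88 in WT with IL-4, and 6.28, 6.75 and 6.88 in unstimulated Nur77-KO and 6.24, 6.53 and 6.35 in unstimulated WT. With IL-4 the arrays that stand apart were lower than the mean of their partners, with gaps of -0.66 in Nur77-KO and -0.96 in WT. Every LPS array was above every IL-4 and every unstimulated array. Its relative Thbs2 followed the majority, with 4.63, 8.34 and 8.51 in Nur77-KO and 7.09, 6.43 and 4.66 in WT with LPS. Thbs2 read 4.74, 8.62 and 8.54 in Nur77-KO and 4.46, 6.83 and 5.98 in WT with IL-4, and 9.23, 9.25 and 9.36 in unstimulated Nur77-KO and 7.03, 7.24 and 7.62 in unstimulated WT.

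Fstl1, encoding a secreted follistatin-like glycoprotein, read 5.67, 9.70 and 9.63 in Nur77-KO and 8.69, 8.24 and 5.10 in WT with LPS. With IL-4 it read 4.58, 8.65 and 8.60 in Nur77-KO and 4.77, 6.88 and 6.69 in WT, against 9.09, 9.43 and 9.34 in unstimulated Nur77-KO and 7.95, 7.59 and 8.07 in unstimulated WT. Outside the 4 arrays, the order was LPS above IL-4 in both genotypes. Sparc (osteonectin), Fn1 (fibronectin), Fbln2 (fibulin 2) and Sdc2 (syndecan 2) were all lower on the 4 arrays than on any of the others. For Sparc the ranges were 5.13 to 6.71 on the 4 arrays and 8.44 to 10.55 on the others, for Fn1 they were 4.63 to 6.94 and 7.94 to 9.34. Mgp, an inhibitor of calcification, was detected on all 18 arrays, at 6.16 to 6.80 and 9.23 to 10.66. Hspg2 (perlecan) lay between 4.83 and 5.39 and between 5.44 and 7.91.

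Among the stromal receptors and signals, Itga11, the collagen-binding integrin chain of fibroblasts, read 4.64, 7.39 and 7.57 in Nur77-KO and 5.04, 5.11 and 4.75 in WT with LPS. It read 4.65, 7.36 and 7.59 in Nur77-KO and 4.57, 5.03 and 4.90 in WT with IL-4, and 8.79, 8.66 and 8.56 in unstimulated Nur77-KO and 5.95, 5.99 and 6.10 in unstimulated WT. WT BMM had an Itga11 signal above background only without stimulus. Dkk3, a secreted relative of the Wnt inhibitors, read 4.73, 8.12 and 7.96 in Nur77-KO and 6.97, 5.90 and 4.92 in WT with LPS. With IL-4 it read 6.05, 9.42 and 9.17 in Nur77-KO and 4.85, 6.98 and 7.04 in WT, against 9.77, 9.73 and 9.68 in unstimulated Nur77-KO and 7.42, 7.09 and 7.64 in unstimulated WT. Cxcl12, the chemokine SDF-1, read 5.10, 9.21 and 8.99 in Nur77-KO and 6.68, 6.15 and 4.89 in WT with LPS. Stimulated with IL-4 it read 5.53, 8.36 and 8.34 in Nur77-KO and 5.26, 6.78 and 6.22 in WT, and unstimulated 9.73, 9.54 and 9.60 in Nur77-KO and 6.67, 7.39 and 7.08 in WT. Dkk3 and Cxcl12 were highest in unstimulated Nur77-KO BMM. Pdgfra, a receptor that marks many fibroblasts, lay between 4.67 and 4.97 on the 4 arrays and between 6.52 and 8.62 on the others. Pdgfrb was detected on 2 arrays in all, with 5.07, 6.54 and 5.12 in Nur77-KO with LPS, 4.88, 4.95 and 5.17 in WT with LPS, and 4.63 to 5.52 on the other 12 arrays.

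Among the contractile genes, Acta2, encoding smooth muscle alpha-actin, was detected at 9.13 to 9.86 on the 4 arrays and 12.01 to 13.84 on the others. Actg2, the gamma-actin of smooth muscle, read 5.32, 9.06 and 9.32 in Nur77-KO and 7.31, 6.77 and 4.81 in WT with LPS. It read 5.98, 9.50 and 9.40 in Nur77-KO and 4.73, 7.12 and 6.70 in WT with IL-4, and 10.06, 10.13 and 9.80 in unstimulated Nur77-KO and 7.35, 7.64 and 7.99 in unstimulated WT. Myl9, a regulatory myosin light chain, read 4.52, 7.45 and 7.12 in Nur77-KO and 5.99, 5.95 and 4.53 in WT with LPS. It read 5.12, 7.67 and 7.44 in Nur77-KO and 4.78, 6.66 and 6.41 in WT with IL-4, against 8.51, 8.33 and 8.40 in unstimulated Nur77-KO and 7.45, 7.19 and 7.50 in unstimulated WT. All 6 LPS and all 6 IL-4 arrays were below the unstimulated arrays of their genotype in Myl9. Tagln (transgelin) was detected on 5 arrays and Cnn1 (calponin 1) on 1. Tagln read 4.97, 6.03 and 5.66 in Nur77-KO and 5.08, 5.22 and 4.64 in WT with LPS. It read 5.03, 5.35 and 5.44 in Nur77-KO and 4.71, 5.05 and 5.19 in WT with IL-4, against 6.31, 6.38 and 6.13 in unstimulated Nur77-KO and 5.14, 5.15 and 5.73 in unstimulated WT.

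**Figure D3:**
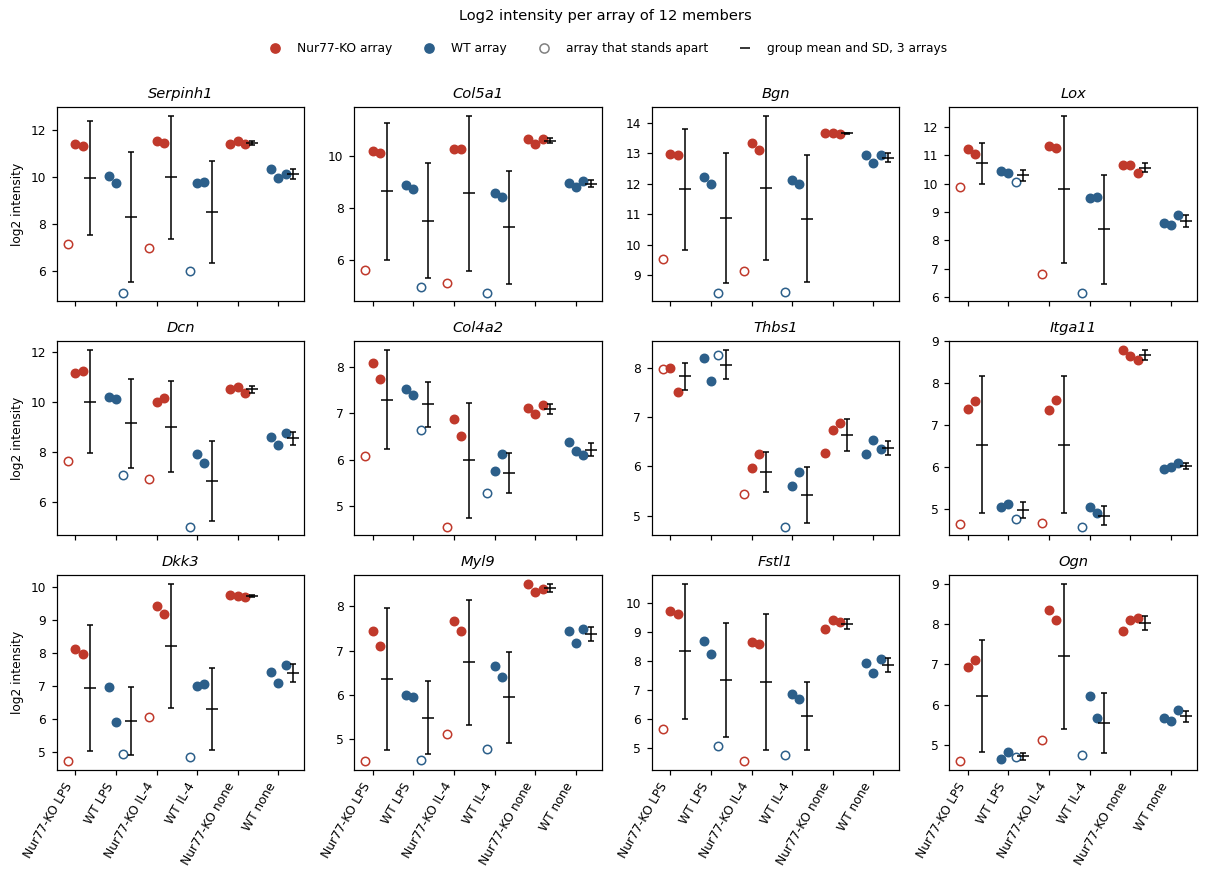
Log2 intensity (y axis) on each array by group (x axis) for 12 of the 38 genes; red points are Nur77-KO arrays, blue points WT arrays, open points the 4 arrays that stand apart, and bars the mean and SD of 3 arrays. Open points lie far below their partners for Serpinh1, Col5a1 and Bgn, whereas for Thbs1 the LPS arrays lie together at 7.51 to 8.26.

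In response to LPS, most of the 38 genes had lower means than in unstimulated cells, yet few differences exceeded the spread between arrays. With all 18 arrays, 5 of the 38 genes passed an adjusted p of 0.05 (limma, Benjamini-Hochberg over 12417 genes) in Nur77-KO, where 37.8% of all genes did, and 2 passed in WT, where 39.8% of all genes did. The median log2 fold change over the 38 was -1.51 in Nur77-KO (-0.08 over all genes) and -0.70 in WT (-0.06 over all genes). Each median rested largely on 1 array: it was -0.41 in Nur77-KO without Nur77-KO LPS replicate 1 and -0.09 in WT without WT LPS replicate 3. The slides, which the sample labels do not name and which follow the numbering of the raw data columns, held arrays of several groups. With slide as a fixed block 15 genes were called in WT, 2 higher and 13 lower with LPS, where 33.2% of all genes were called, and the WT median was -2.46. Fold changes are given on the log2 scale with their standard error. Thbs1 rose in both genotypes, by a log2 fold change of 1.19 ± 0.28 in Nur77-KO (adjusted p = 0.00256) and 1.69 ± 0.28 in WT (adjusted p = 0.000116). Col14a1 rose in WT (1.06 ± 0.31, adjusted p = 0.0114), at least 1.39-fold given that it was not detected on any unstimulated WT array, and had -0.23 ± 0.31 in Nur77-KO. Dkk3 (-2.79 ± 0.92, adjusted p = 0.0245), Itga11 (-2.14 ± 0.69, adjusted p = 0.0218), Myl9 (-2.05 ± 0.74, adjusted p = 0.0386) and Tagln (-0.72 ± 0.25, adjusted p = 0.0327) fell in Nur77-KO. In WT the same genes had -1.45 ± 0.92, -1.05 ± 0.69, -1.88 ± 0.74 and -0.36 ± 0.25 without a call. Serpinh1 had -1.51 ± 1.47 in Nur77-KO and -1.83 ± 1.47 in WT, an error close to the size of the difference, and neither was called. Bgn (-1.84 ± 1.26) and Thbs2 (-2.12 ± 1.05) in Nur77-KO were not called either. Without Nur77-KO LPS replicate 1 none of the 4 falls was called (adjusted p = 0.131 to 0.221), which left 1 call in Nur77-KO, and without Nur77-KO LPS replicate 2 there were 9. Leaving out unstimulated Nur77-KO arrays also ended the calls, replicates 1 and 2 for all 4 genes and replicate 3 for Dkk3 and Myl9, as did Nur77-KO LPS replicate 3 for Tagln (0.0506). Among other settings, the Myl9 call was lost without the detection filter (adjusted p = 0.0588) and with a trended and robust prior (0.0629), and the Tagln call without background correction (0.0721), with only the groups compared (0.0607) and with slide as a fixed block (0.0659). The WT call of Col14a1 was lost without WT LPS replicate 3 (adjusted p = 0.0705) and with median normalization (0.153), and the Nur77-KO call of Thbs1 with median normalization (0.36, adjusted p = 0.552) and with slide as a fixed block (1.01, adjusted p = 0.0659).

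Without the 4 arrays, which leaves 2 arrays in each stimulated group, the 38 genes were called with LPS about as often as all genes, in each direction. In Nur77-KO 18 of the 38 were called, where 45% of all genes were: 6 were higher with LPS (17% of all genes) and 12 lower (28%). In WT 18 were called, where 45.8% of all genes were: 8 were higher (18.4% of all genes) and 10 lower (27.5%). Lox (0.58 ± 0.14 in Nur77-KO, 1.73 ± 0.14 in WT), Dcn (0.71 ± 0.16, 1.64 ± 0.16), Col4a1 (0.69 ± 0.20, 0.54 ± 0.20), Col4a2 (0.82 ± 0.17, 1.26 ± 0.17) and Thbs1 (1.12 ± 0.22, 1.59 ± 0.22) rose in both genotypes, given as Nur77-KO and then WT. In the same order, Dkk3 (-1.69 ± 0.25, -0.95 ± 0.25), Myl9 (-1.13 ± 0.15, -1.40 ± 0.15), Itga11 (-1.19 ± 0.12, -0.94 ± 0.12), Ogn (-1.01 ± 0.18, -0.98 ± 0.18), Bgn (-0.69 ± 0.13, -0.75 ± 0.13), Actg2 (-0.81 ± 0.22, -0.62 ± 0.22) and Acta2 (-0.42 ± 0.13, -0.63 ± 0.13) fell in both. In WT the Itga11 and Ogn signals with LPS were below background, which bounds those falls at 1.27-fold and 1.02-fold or more. By role, the collagen IV chains and Lox rose in each genotype. In each genotype 3 of 5 contractile genes, 3 of 5 stromal receptors and signals and 2 of 3 small leucine-rich proteoglycans fell. Of all genes 28% fell in Nur77-KO and 27.5% in WT, and groups this small were not tested against that share. Cnn1 was called higher in Nur77-KO but was below background on all arrays of both groups, so no fold is given. Fstl1 (0.59 ± 0.18), Col18a1 (0.51 ± 0.11) and Col14a1 (0.72 ± 0.23, at least 1.10-fold) rose in WT, where they had 0.38 ± 0.18, 0.16 ± 0.11 and -0.08 ± 0.23 in Nur77-KO without a call. Serpinh1, Fn1, Sparc and Col6a1, all of them lower on the 4 arrays than on any other, had log2 fold changes between -0.28 and 0.03 in both genotypes and were not called.

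The difference between the LPS effects of the genotypes was itself tested. With all 18 arrays none of the 38 genes passed (0.0161% of all genes did), 1 had an unadjusted p under 0.05 (4.52% of all genes) and the median difference over the 38 was -0.63. Its sign rested on single arrays and on the setting: the median was 0.32 without Nur77-KO LPS replicate 1, -1.25 without WT LPS replicate 3 and 0.80 with slide as a fixed block. Without the 4 arrays 1 gene passed, Lox, where 0.668% of all genes did: its LPS effect in Nur77-KO minus that in WT was -1.16 ± 0.20 log2 units (adjusted p = 0.0237). Lox reached 11.23 and 11.06 in Nur77-KO and 10.44 and 10.38 in WT on these LPS arrays, against 10.37 to 10.68 and 8.52 to 8.91 in unstimulated Nur77-KO and WT BMM.

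In response to IL-4, the cytokine of alternative activation, nearly all of the 38 genes had lower means and hardly any passed the test with all 18 arrays. In Nur77-KO 1 of the 38 was called where 5.55% of all genes were, and in WT 1 where 6.76% were. Tagln fell in Nur77-KO (-1.0 ± 0.25, adjusted p = 0.027; at least 1.67-fold, since no Nur77-KO array with IL-4 detected it) and had -0.36 ± 0.25 in WT. The Tagln call was lost without Nur77-KO IL-4 replicate 1 or 2 or any unstimulated Nur77-KO array (adjusted p = 0.0612 to 0.111), and without background correction (0.0627). Thbs1 fell in WT (-0.95 ± 0.28, adjusted p = 0.0493) and had -0.75 ± 0.28 in Nur77-KO. That WT call stood close to the threshold and was lost when any of 13 of the 18 arrays was left out, WT IL-4 replicate 1 among them (log2 fold change -0.64, adjusted p = 0.183 without it), and under 6 other settings (adjusted p = 0.064 to 0.895, the highest with median normalization). The other large differences were Cxcl12 (-2.22 ± 0.91), Itga11 (-2.14 ± 0.69) and Col5a1 (-2.03 ± 1.48) in Nur77-KO, and Bgn (-1.99 ± 1.26), Fstl1 (-1.76 ± 1.17) and Dcn (-1.71 ± 1.08) in WT, with standard errors close to 1 log2 unit or above for all but Itga11. The medians over the 38 were -1.28 in Nur77-KO and -1.0 in WT, against 0.00 and -0.01 over all genes. Without Nur77-KO IL-4 replicate 1 the Nur77-KO median was -0.42, and without WT IL-4 replicate 1 the WT median was -0.37.

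Without the 4 arrays, 11 of the 38 genes were called in Nur77-KO (12.4% of all genes) and 14 in WT (16.2% of all genes). In Nur77-KO 10 were lower with IL-4 and 1 higher (6.43% and 5.94% of all genes), and in WT 13 were lower and 1 higher (8.13% and 8.07%). The gene that was higher was Lox in both (0.73 ± 0.14 in Nur77-KO, 0.83 ± 0.14 in WT). Itga11 (-1.20 ± 0.12, -1.05 ± 0.12), Fstl1 (-0.66 ± 0.18, -1.08 ± 0.18), Myl9 (-0.86 ± 0.15, -0.84 ± 0.15), Col1a2 (-0.83 ± 0.24, -0.81 ± 0.24), Col16a1 (-0.62 ± 0.17, -0.74 ± 0.17) and Bgn (-0.43 ± 0.13, -0.79 ± 0.13) fell in both, given as Nur77-KO and then WT. In WT the Itga11 signal with IL-4 was below background, so that its fall is at least 1.49-fold. Cxcl12 fell in Nur77-KO (-1.27 ± 0.23) and Dcn in WT (-0.79 ± 0.16), with -0.54 ± 0.23 for Cxcl12 in WT and -0.44 ± 0.16 for Dcn in Nur77-KO. None of the 38 genes passed the test of the difference between the IL-4 effects of the genotypes, with or without the 4 arrays (0.0322% of all genes passed without them and 0.00805% with them; 0 of the 38 had an unadjusted p under 0.05 over 18 arrays, against 2% of all genes). Within slide 4, which held a WT IL-4 array and an unstimulated WT array that do not stand apart, 5 of the 38 genes were higher with IL-4 and the median difference was -0.49. The median was -2.39 within slide 1 in WT and -3.37 within slide 4 in Nur77-KO, where the IL-4 array is among the 4.

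**Figure D4:**
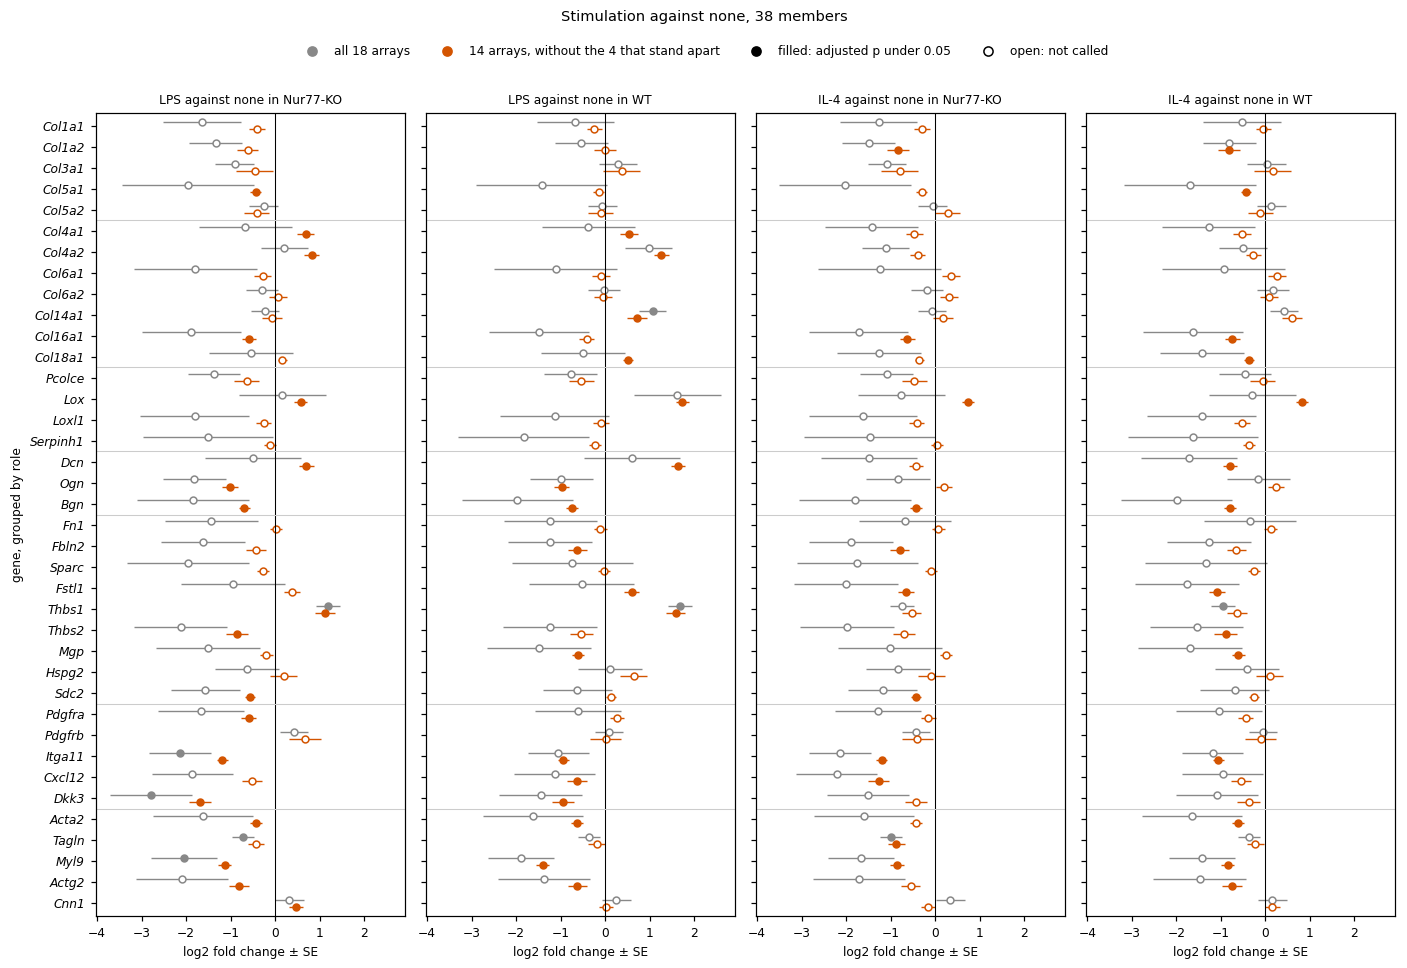
Log2 fold change with its standard error (x axis) of the 38 genes (y axis, grouped by role) for LPS and IL-4 against no stimulus in each genotype, from all 18 arrays (grey) and from the 14 arrays without the 4 that stand apart (orange); filled points have an adjusted p under 0.05. Grey bars are wide and mostly left of 0, with medians of -1.51, -0.70, -1.28 and -1.0 from left to right, and orange points lie closer to 0.

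Set against each other, LPS and IL-4 differed for Thbs1 in both genotypes. Its log2 fold change for LPS against IL-4 was 1.94 ± 0.28 in Nur77-KO (adjusted p = 3.12e-05) and 2.64 ± 0.28 in WT (adjusted p = 1.04e-06), and this call held under every alternative tried in both genotypes. With all 18 arrays 2 of the 38 genes were called in each genotype, where 36.8% of all genes in Nur77-KO and 38.4% in WT were. The other called genes were Pdgfrb in Nur77-KO (0.85 ± 0.31, adjusted p = 0.0441; at least 1.03-fold, with 1 of 3 LPS arrays above background) and Col4a2 in WT (1.48 ± 0.53, adjusted p = 0.037). The Col4a2 call was lost without WT LPS replicate 1 or 2 or WT IL-4 replicate 1 or 2 (adjusted p = 0.0734 to 0.119), with median normalization (0.274), without the detection filter (0.0553), and when slide was a fixed effect (0.212) or a random one (0.052). The Pdgfrb call was lost when any of 11 of the 18 arrays was left out and under 4 other settings (adjusted p = 0.0505 to 0.184), among them the replicate number as a block (0.0505), and without Nur77-KO LPS replicate 2, the array that detected it, the value was 0.37 (adjusted p = 0.256). Col4a2 had 1.32 ± 0.53 in Nur77-KO, and Dcn and Lox had 2.31 ± 1.08 and 1.90 ± 0.98 in WT, without a call. Without the 4 arrays, 13 of the 38 were called in Nur77-KO (40.4% of all genes) and 12 in WT (43.2% of all genes). Thbs1 had 1.65 ± 0.24 in Nur77-KO and 2.22 ± 0.24 in WT in that fit. Dcn (1.14 ± 0.18 in Nur77-KO, 2.43 ± 0.18 in WT), Fstl1 (1.04 ± 0.19, 1.68 ± 0.19), Col4a1 (1.16 ± 0.21, 1.06 ± 0.21), Col4a2 (1.22 ± 0.18, 1.53 ± 0.18) and Col18a1 (0.52 ± 0.12, 0.87 ± 0.12) were higher with LPS in both. Ogn was lower with LPS in both (-1.21 ± 0.19 in Nur77-KO, -1.22 ± 0.19 in WT), at least 1.21-fold in WT because its WT LPS signal was below background. In Nur77-KO BMM 2 slides held an LPS and an IL-4 array each, none of them among the 4. Thbs1 was higher with LPS by 2.04 on slide 5 and 1.25 on slide 6, Dcn by 1.19 and 1.10, and the median of the 38 genes was -0.04 and -0.03.

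Comparing Nur77-KO with WT, the clearest separation lay in unstimulated BMM, where no array stands apart. The 38 genes were chosen with earlier results of these data known, so the counts that follow are no independent evidence. All 3 Nur77-KO arrays were above all 3 WT arrays for 34 of the 38 genes (89.5%), and 11.1% of all genes were higher without overlap. Col18a1 was lower without overlap (7.94% of all genes), and Thbs1, Pdgfrb and Cnn1 overlapped. Fitted on these 6 arrays alone, with 4 residual degrees of freedom, 27 of the 38 genes were called, all higher in Nur77-KO, where 2.18% of all genes were called and 1.63% called higher. The largest were Itga11 (2.65 ± 0.11, adjusted p = 0.000175), Col1a1 (2.60 ± 0.15, adjusted p = 0.000859), Cxcl12 (2.58 ± 0.19, adjusted p = 0.000995), Dkk3 (2.34 ± 0.15, adjusted p = 0.000895), Actg2 (2.33 ± 0.18, adjusted p = 0.00138) and Ogn (2.33 ± 0.14, adjusted p = 0.000859). Serpinh1 (1.33 ± 0.13), Lox (1.89 ± 0.15), Dcn (1.97 ± 0.16), Bgn (0.80 ± 0.12) and Acta2 (0.93 ± 0.11) were called as well. In the fit over all 18 arrays, which shares its estimate of the spread with the stimulated groups, the standard error of Col1a1 was 0.87 instead of 0.15 and none of the 38 was called, where 0.105% of all genes were, and 10 had an unadjusted p under 0.05 (5.06% of all genes). The log2 fold changes of that fit were the same, with a median of 1.39 over the 38 and 0.00 over all genes; with slide as a fixed block the median was 0.56. On slide 2 and slide 4, each of which held 1 unstimulated array of each genotype, 34 and 36 of the 38 were higher in Nur77-KO, with medians of 1.53 and 1.22.

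With all 18 arrays, none of the 38 genes was called between Nur77-KO and WT with LPS (0.193% of all genes) or with IL-4 (0.0403% of all genes), and none of the 38 was free of overlap between genotypes, where 6.39% of all genes were higher and 5.64% lower without overlap with LPS and 4.18% and 3.5% with IL-4. An unadjusted p under 0.05 was reached by 3 of the 38 with LPS (8.38% of all genes) and 2 with IL-4 (4.73%). The medians were 0.84 with LPS and 1.0 with IL-4, but 1 array moved them widely: with LPS the median was 1.99 without Nur77-KO LPS replicate 1 and 0.05 without WT LPS replicate 3, and with IL-4 it was 2.20 without Nur77-KO IL-4 replicate 1 and 0.29 without WT IL-4 replicate 1. With slide as a fixed block the medians were 1.50 and 0.07, and without the 4 arrays 1.06 and 1.39. The largest differences with LPS were Cxcl12 (1.86 ± 0.91), Serpinh1 (1.65 ± 1.47) and Col1a1 (1.62 ± 0.87), and with IL-4 they were Dcn (2.18 ± 1.08), Actg2 (2.11 ± 1.04) and Dkk3 (1.92 ± 0.92). Without the 4 arrays, which leaves 2 arrays against 2 in each state, 27 of the 38 were called with LPS (5.31% of all genes), 26 of them higher in Nur77-KO (3.21% of all genes) and Col18a1 lower. With IL-4 27 were called (2.51% of all genes), all higher in Nur77-KO (1.84%). In that fit 30 were called in unstimulated cells (3.79% of all genes), all higher in Nur77-KO (2.64%). Cxcl12 (2.68 ± 0.25 with LPS, 1.85 ± 0.25 with IL-4), Col1a1 (2.43 ± 0.19, 2.34 ± 0.19), Dkk3 (1.60 ± 0.28, 2.28 ± 0.28), Serpinh1 (1.44 ± 0.15, 1.74 ± 0.15) and Actg2 (2.15 ± 0.24, 2.54 ± 0.24) were among them. Itga11 was at least 3.49-fold higher in Nur77-KO with LPS and at least 4.08-fold higher with IL-4, since WT arrays with a stimulus did not detect it. These 3 comparisons share no arrays with each other. They come from the same fit, which shares its estimate of each gene's spread, so they are not independent results. The 4 arrays were picked by a list that is low on the same arrays as the 38 genes. Leaving them out removes spread of these genes in particular, so the counts of calls without them follow in part from that choice. Set against the shares of all genes, those counts are no separate result. Within slide 6, which held an IL-4 array of each genotype outside the 4, 34 of the 38 genes were higher in Nur77-KO and the median was 1.45. The median was -1.20 within slide 4, where the Nur77-KO IL-4 array is among the 4, and 3.23 with LPS within slide 6, where the WT array is.

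The same split of the arrays ran through genes that are no part of the matrix, which limits what the genotype comparison can separate. On the 14 arrays, Eif2s3y was 8.91 to 9.68 in Nur77-KO and 4.45 to 4.76 in WT, and Xist, expressed from the inactive X chromosome, was 8.93 to 9.89 in Nur77-KO and 10.70 to 11.28 in WT. Npy was 9.88 to 10.69 in Nur77-KO and 4.56 to 4.93 in WT. Genotype and these markers cannot be told apart on those arrays. The mesenchymal list outside the 38 genes was higher in unstimulated Nur77-KO too, with means of 7.11 to 7.26 against 6.50 to 6.68 in WT, and its part in the differences of the 38 genes was not tested. The mean of the neutrophil genes was also higher there (7.59 to 7.75 in Nur77-KO and 5.85 to 6.28 in WT, 7 of 8 tested), although Elane overlapped. Macrophage markers had means of 10.57 to 10.64 in Nur77-KO and 10.85 to 10.92 in WT. Col1a1, Cxcl12, Itga11, Dkk3, Ogn, Dcn, Thbs2 and Actg2 are among the genes that the study itself singled out on these same arrays. The gene sets it reported as raised in Nur77-KO BMM also named many others of the 38, among them further collagen chains, Serpinh1, Fn1, Sparc and Acta2. The values of these genes and the counts over the 38 are therefore no independent evidence.

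**Figure D5:**
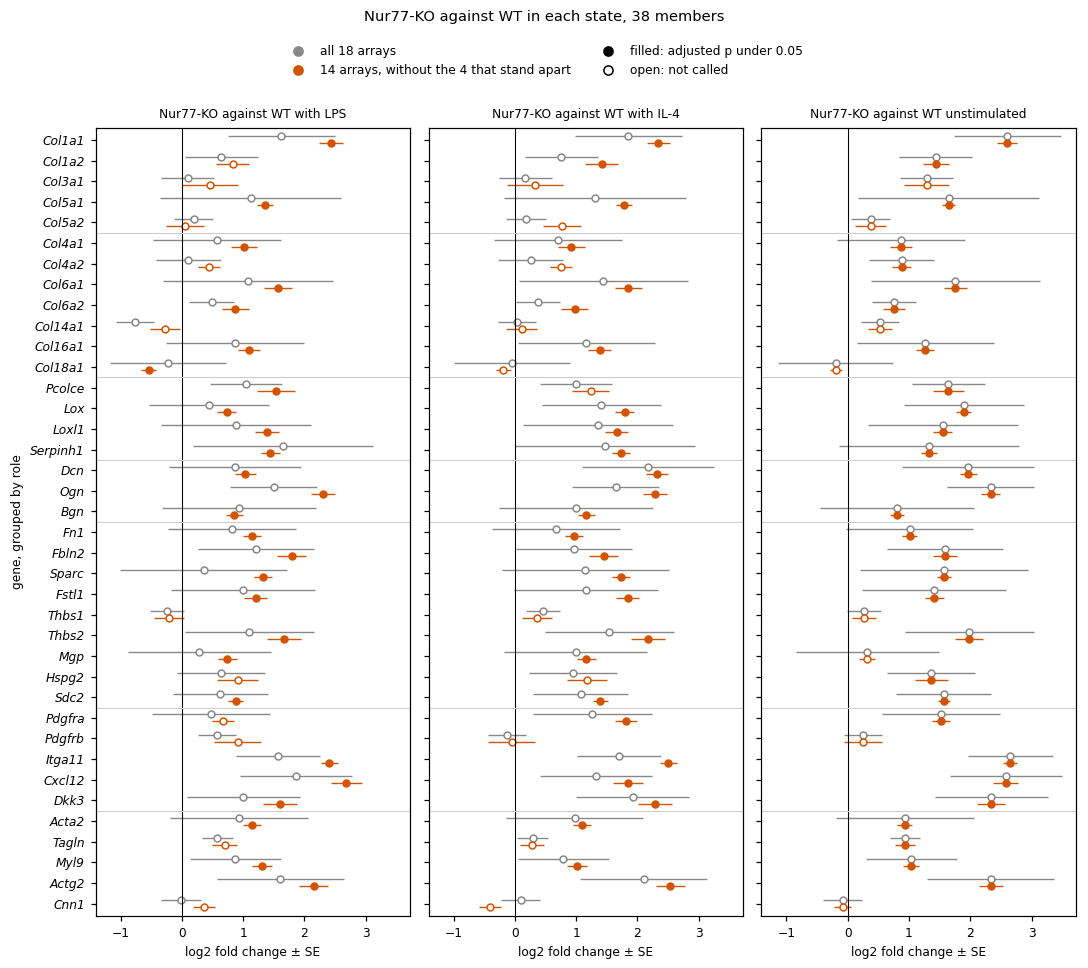
Log2 fold change with its standard error (x axis) of the 38 genes (y axis, grouped by role) for Nur77-KO against WT with LPS, with IL-4 and without stimulus, from all 18 arrays (grey) and from the 14 arrays without the 4 that stand apart (orange); filled points have an adjusted p under 0.05. No grey point is filled, and 27, 27 and 30 orange points are, nearly all right of 0.

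Other collagen and matrix genes were read beside the 38. Of 42 tested genes in a list of other collagens and matrix genes, 3 rose and 5 fell with LPS in Nur77-KO, and 5 rose and 4 fell in WT, where 37.8% and 39.8% of all genes were called. With IL-4 a single gene passed in each genotype (Ccn5 fell in Nur77-KO, P4ha1 rose in WT), where 5.55% and 6.76% of all genes did. Vcan, encoding the large proteoglycan versican, rose with LPS in both, with 6.18, 6.94 and 6.11 in Nur77-KO and 7.31, 6.74 and 4.76 in WT, against 4.72 to 5.0 in unstimulated Nur77-KO and 4.63 to 4.75 in unstimulated WT (log2 fold change 1.53 ± 0.43 in Nur77-KO and 1.59 ± 0.43 in WT). No unstimulated array detected it, so these are at least 2.07-fold in Nur77-KO and at least 1.70-fold in WT. The WT array that stands apart, at 4.76, did not show that rise. Ccn5, a matricellular growth regulator, fell with LPS (-2.87 ± 0.58 in Nur77-KO, -1.67 ± 0.58 in WT, the second at least 1.61-fold since no WT array with LPS detected it). P4hb, the disulfide isomerase that is also a subunit of collagen prolyl hydroxylase, fell with LPS (-0.99 ± 0.13 in Nur77-KO, -0.73 ± 0.13 in WT), and it was at 11.95 to 12.08 on the LPS arrays that stand apart and 11.99 to 12.31 on the other LPS arrays. Of 9 tested genes for collagen folding in the endoplasmic reticulum, 2 fell and none rose with LPS in each genotype (P4hb in both, Pdia3 in Nur77-KO, Ppib in WT). In the mesenchymal list, 1 of 19 genes rose and 3 fell with LPS in Nur77-KO, and 2 rose and 1 fell in WT. Pdpn and Igfbp4 were called in both genotypes and are named after their values were seen: Pdpn rose with LPS (2.07 ± 0.23 in Nur77-KO, 2.70 ± 0.23 in WT) and Igfbp4 fell (-2.11 ± 0.29, -2.43 ± 0.29). On the LPS arrays that stand apart, Pdpn read 13.46 in Nur77-KO and 13.02 in WT, against 13.08 to 13.16 and 12.76 to 12.88 on their partners. Igfbp4 read 8.37 in Nur77-KO and 8.89 in WT there, against 8.485 to 8.633 and 8.54 to 8.78. The mean of the whole list differed from that of the partners by -1.27 in Nur77-KO and -1.15 in WT.

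Promoter sequence was looked at for motifs of regulators that bear on these comparisons, in the 250 bases before the annotated start (RefSeq, GRCm38.p6), for which 27 of the 43 genes had an entry. The motifs, searched on both strands, were AAAGGTCA, the element bound by Nur77 as a monomer, its near-match AAAGGTCT, and the CArG box, bound by serum response factor at contractile genes. AAAGGTCA was in none of the 27 windows and in 1.55% of 27025 windows of all genes. AAAGGTCT was in Cxcl12 and Col6a2 (1.08% of all windows) and the CArG box in Myl9 (1.62%). The study itself had reported AAAGGTCT at this place of the Cxcl12 promoter, so that match was known before the search and its share is no test. In the study's reporter assays, mutating this site weakened the repression by Nur77, and its ChIP experiments found overexpressed Nur77 at this promoter region. The windows are shown for these genes because Cxcl12 was among those that differed most between the genotypes in unstimulated cells and Myl9 fell with LPS; capitals mark the motif, and a match is a description of the letters only. The windows were chr6:117168285-117168534 on the plus strand for Cxcl12, chr10:76623631-76623880 on the minus strand for Col6a2 and chr2:156775214-156775463 on the plus strand for Myl9, and counted from the start of transcription the motifs begin at -160 in Cxcl12, -39 in Col6a2 and -161 in Myl9.
Cxcl12: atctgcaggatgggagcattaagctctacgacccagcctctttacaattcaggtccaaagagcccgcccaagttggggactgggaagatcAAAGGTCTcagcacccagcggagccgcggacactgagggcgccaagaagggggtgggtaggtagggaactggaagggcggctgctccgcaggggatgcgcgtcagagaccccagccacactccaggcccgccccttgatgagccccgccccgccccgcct
Col6a2: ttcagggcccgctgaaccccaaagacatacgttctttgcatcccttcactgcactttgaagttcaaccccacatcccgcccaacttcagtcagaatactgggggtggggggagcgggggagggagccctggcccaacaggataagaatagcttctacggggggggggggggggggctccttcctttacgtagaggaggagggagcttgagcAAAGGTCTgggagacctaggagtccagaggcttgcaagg
Myl9: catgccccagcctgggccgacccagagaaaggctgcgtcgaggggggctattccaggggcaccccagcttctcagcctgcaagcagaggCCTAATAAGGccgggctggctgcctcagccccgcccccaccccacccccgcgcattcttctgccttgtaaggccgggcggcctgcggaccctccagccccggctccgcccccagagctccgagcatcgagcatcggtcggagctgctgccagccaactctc

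For 15 of the 38 genes, 23 further detected probes could be compared with the brightest one. Where a gene was called without the 4 arrays, its further probes gave 104 values, of which 14 had the opposite sign, 11 of them on probes detected on 7 arrays or fewer. These belonged to Acta2, Col18a1, Cxcl12, Itga11 and Pdgfra. The Pdgfra probe that was detected on 5 arrays had a log2 fold change of 0.79 (adjusted p = 0.0254) for LPS in Nur77-KO without the 4 arrays, where the brightest probe had -0.59 ± 0.16, so the 2 probes of that gene disagreed.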

How the data were processed

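RNA of 18 cultures was hybridised to Illumina MouseWG-6 v2 arrays, 3 for each of the 6 groups. The sample labels name no slide. Arrays were assigned to 6 slides by the running number of their raw data column, in blocks of 6, so each slide is an inferred batch. For 45281 probes the authors exported bead summary intensities and, beside them, the p-value of detection from GenomeStudio 2011.1. The log2 values they deposited, which were used here, had been background-corrected on the control probes and quantile-normalized before the log2 transformation (limma 3.10.2, R 2.14.0). Recomputing them from the deposited intensities with neqc (offset 16) gave values that differed by at most 0.0588. The precision of each value is limited by the number of arrays. Median array intensity was 124.3 to 198.1, and 11829 to 16283 probes were detected per array.

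Gene symbols came from GEO's platform annotation: 34885 probes had 1 symbol, 18 had several and 10378 were not listed. Each of 12417 genes was represented by its brightest probe detected (p-value under 0.05) on at least 1 array. Group means were fitted with limma 3.58.1 (R 4.3.3) over all 18 arrays, with 12 residual and 3.65 prior degrees of freedom (8 and 3.61 without the 4 arrays that stand apart), and Benjamini-Hochberg adjustment over all genes in each of 9 comparisons of 2 groups and 2 differences between the effects in the genotypes. Where every array of a group failed detection, the fold is a bound against the lowest signal detected on each of its arrays. The procedure was tested on simulated data.

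The genes and lists were chosen with earlier results of these data known. Array by array values are given for genes called in a comparison of 2 groups or among the 3 largest changes in one; Pdpn and Igfbp4 were named after their values were seen. Alternatives varied the background correction, normalization, detection filter, probe choice, prior, arrays fitted, slide as a block, replicate number as a block, and the thresholds of the study's methods (unadjusted p under 0.05 and a fold of at least 1.4), and left out each array in turn. Leaving out the 4 arrays that stand apart was chosen after seeing the data, so counts of calls without them follow in part from that choice. The replicate numbers were not used to pair the arrays in the main fit. Residuals of arrays with the same number had a mean correlation of 0.058 (-0.318 to 0.524), against -0.020 for arrays with other numbers. Yet 11 arrays correlated best with an array of their own number, a count that was not tested against chance. Whether the numbers pair the arrays was therefore not settled.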

Additional observations from a re-analysis of the deposited data

How the results depend on the processing

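No called value changed direction under the alternatives run. The medians of the 38 genes, which were not tested, did so for both differences of effects and for LPS against IL-4. The number of the 38 genes called moved as follows, each with the share of all genes called under the same setting; the cause was not tested except where fewer arrays or another threshold define the setting. For LPS in Nur77-KO, 5 became 10 without background correction (38.3% of all genes), 10 with median normalization (29.2%) and 8 at the thresholds of the methods (40.5%). For LPS in WT, 2 became 1 with median normalization (16.1%), 7 with only the groups compared (36.7%) and 15 with slide as a fixed block (33.2%). For IL-4 in Nur77-KO, 1 became 2 without background correction (7.54%), 3 with slide as a fixed block (3.16%) and 7 at the thresholds of the methods (11.9%). For IL-4 in WT, 1 became 0 without background correction (8.91%), with median normalization (0.564%), without the detection filter (4.31%) and with slide as a fixed block (4.94%). For LPS against IL-4 in Nur77-KO, 2 became 1 with median normalization (14.9%), without the filter (23.1%), with detection on at least 3 arrays (46%) and with only the groups compared (30.1%). In WT, 2 became 1 with median normalization (13.3%), without the filter (24.4%), and with slide as a fixed (33.9%) or as a random block (39%). For Nur77-KO against WT, where 0 were called, the thresholds of the methods gave 3 with LPS (6.24%), 2 with IL-4 (3.24%) and 10 without stimulus (3.56%); unstimulated cells also gave 1 without background correction (0.298%) and 27 with only the groups compared (2.18%). The difference of the LPS effects gave 1 at the thresholds of the methods (4.27%).

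Without the 2 Nur77-KO arrays low in Npy, 8 genes were called for LPS in WT (42.5% of all genes), 2 for IL-4 in Nur77-KO (5.48%) and 2 in WT (9.04%), 4 for LPS against IL-4 in Nur77-KO (32.2%) and 5 in WT (41.1%), and for Nur77-KO against WT 7 with LPS (2%), 6 with IL-4 (0.676%) and 5 unstimulated (0.813%). Without the 4 arrays that stand apart, the counts were 18 for LPS in Nur77-KO (45%), 18 for LPS in WT (45.8%), 11 for IL-4 in Nur77-KO (12.4%), 14 for IL-4 in WT (16.2%), 13 and 12 for LPS against IL-4 in Nur77-KO (40.4%) and WT (43.2%), 27, 27 and 30 for Nur77-KO against WT with LPS (5.31%), with IL-4 (2.51%) and unstimulated (3.79%), and 1 for the difference of the LPS effects (0.668%). Leaving out 1 array at a time gave 1 to 9 calls for LPS in Nur77-KO, 1 to 3 in WT, 0 to 2 for IL-4 in Nur77-KO, 0 to 1 in WT, 1 to 3 for LPS against IL-4 in Nur77-KO and in WT, and for Nur77-KO against WT 0 to 2 with LPS, 0 to 0 with IL-4 and 0 to 1 unstimulated; both differences of effects stayed at 0. With the replicate number as a block, the counts were 7 and 3 for LPS in Nur77-KO (38.8%) and WT (40.7%), 1 and 1 for IL-4 (5.58% and 7.14%), 2 and 3 for LPS against IL-4 (37.5% and 39%) and 0 for all others (up to 0.169%), and 11 of 18 arrays correlated best with their own number. With median normalization the median log2 fold change over all genes was -0.46 for LPS in Nur77-KO, -0.14 for LPS in WT, -0.32 and -0.11 for IL-4 in Nur77-KO and WT, -0.17 for LPS against IL-4 in Nur77-KO, and 0.22 and 0.47 for Nur77-KO against WT with IL-4 and unstimulated.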
